A study of Mus musculus with 12 samples.

Results

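Collagens are the triple-helical proteins of the extracellular matrix. Some chains assemble into fibrils, some into the sheet-like network of basement membranes, and others into beaded filaments, and some stay anchored in the plasma membrane or decorate fibrils made of other chains (the FACIT collagens). In the brain the fibrillar chains are known mostly from fibroblasts of the meninges and of larger vessels, the chains of type IV collagen from vessel walls, and a few membrane-bound and fibril-associated chains from neurons. The collagen genes described here were the symbols of a deposited count table that read Col, a number, the letter a and a number. This pattern matched 44 of 21872 symbols. Col10a1 was dropped because every count it had was a multiple of 11, which leaves 43 collagen genes of the 16310 symbols that had counts above 0 not made up of such multiples alone.

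Bulk mRNA was measured in striatum and prefrontal cortex of 24-day-old C57BL/6J mice (postnatal day 24). Lesioned mice had received 6-hydroxydopamine (6-OHDA), a toxin that destroys dopamine neurons, and carry the label ADHD, for attention-deficit/hyperactivity disorder, whereas the others are labelled control. The sources used here give neither dose, route nor day, nor what the controls received. The groups were lesioned striatum, control striatum, lesioned prefrontal cortex and control prefrontal cortex, with 3 libraries each and 12 in all, and they shared strain and age. Whether replicate libraries stem from different animals is not stated, so p-values measure the spread between libraries, which may be technical.

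Total counts lay between 15078631 and 20925452 per library. Levels are given as CPM, counts scaled to a common library size after TMM scaling over the 12 libraries, and 3 counts corresponded to 0.143 to 0.199 CPM before that scaling, a floor that covers counting error only. The biological coefficient of variation was 14.9% in the striatal and 5.78% in the prefrontal libraries, each fitted alone. Cortical excitatory neuron markers summed to 174 to 376 CPM in lesioned striatum, 144 to 1292 CPM in control striatum, 3012 to 3141 CPM in lesioned prefrontal cortex and 3025 to 3233 CPM in control prefrontal cortex. Striatal libraries stood apart from each other. Control striatal library 2 held the 1292 CPM of cortical markers and 2147 CPM of choroid plexus markers, against 51.5 and 73.4 CPM of choroid plexus markers in the other control striatal libraries. Lesioned striatal library 1 had 15291 CPM of striatal projection neuron markers and 98.3 CPM of markers of the hypothalamus and its borders, against 5968 and 8513 CPM and against 320.2 and 300.6 CPM in lesioned striatal libraries 2 and 3. Some of the results that rest on these libraries are given with and without them. In bulk RNA, fewer cells of a type and less RNA per cell cannot be told apart.

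All 43 collagen genes had counts in every library. In lesioned prefrontal library 1 this held for every gene kept, since all symbols at 0 there had been dropped. The summed level of the collagens was 589 to 654 CPM in lesioned striatum, 692 to 741 CPM in control striatum, 516 to 607 CPM in lesioned prefrontal cortex and 502 to 612 CPM in control prefrontal cortex. Levels of single chains are compared per kilobase of transcript. Col25a1, a transmembrane collagen of neurons whose shed part was found in amyloid plaques, gave 17.2% of the collagen level per kilobase in lesioned striatum and 17.3% in control striatum, and 11.5% and 9.66% in lesioned and control prefrontal cortex. Col6a1, a chain of the beaded filaments of type VI collagen, gave 19.0% in lesioned striatum, 13.9% in control striatum, 14.02% in lesioned prefrontal cortex and 13.1% in control prefrontal cortex. Col4a2 and Col4a1, the chains of the common basement membrane network, lay between 8.05 and 11.3 CPM per kilobase in all 4 groups.

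Other chains differed in rank by region. Col9a3, a chain of the FACIT collagen IX of cartilage, ranked 5 in lesioned striatum, 3 in control striatum and 7 in both prefrontal groups by CPM per kilobase. Col19a1, a FACIT chain made by interneurons in mouse cortex, ranked 11 in lesioned striatum, 15 in control striatum and 5 in both prefrontal groups. Col12a1, a FACIT chain that binds collagen I fibrils, ranked 27 in both striatal groups, 10 in lesioned prefrontal cortex and 11 in control prefrontal cortex. The lowest chain per kilobase was Col4a3 in lesioned striatum, with 0.07 CPM per kilobase, and Col6a6 in the other groups, with 0.09 CPM per kilobase in control striatum and 0.04 in each prefrontal group.

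The member of each structural class with the highest mean CPM over all 12 libraries is given next, and another member can be higher within a single group. Col25a1 led the transmembrane chains with 129 ± 30.8 CPM in lesioned striatum, 151 ± 29.1 in control striatum, 77.4 ± 4.06 in lesioned prefrontal cortex and 64.6 ± 3.07 in control prefrontal cortex (SD, n = 3 each, as for the following means). Col6a1 led the beaded filament chains with 87.0 ± 19.9, 74.5 ± 10.7, 58.0 ± 11.8 and 53.5 ± 10.3 CPM in the same order of groups. Col4a2 led the basement membrane chains with 61.0 ± 3.30 CPM in lesioned striatum, 72.5 ± 1.49 in control striatum, 63.7 ± 4.49 in lesioned prefrontal cortex and 72.6 ± 8.91 in control prefrontal cortex. Its spread in striatum was small beside its mean, and in control prefrontal cortex Col4a1 was higher, at a mean of 74.9 CPM. The fibrillar leader was Col11a2, a chain of collagen XI, with 42.3 ± 5.47 CPM in lesioned striatum, 34.4 ± 0.48 in control striatum, 20.6 ± 3.43 in lesioned prefrontal cortex and 21.8 ± 4.98 in control prefrontal cortex. In both prefrontal groups Col1a2 was higher, at means of 26.4 CPM in the lesioned and 29.7 CPM in the control libraries. The FACIT leader was Col9a3, whose values by library are given with the comparisons below. In both prefrontal groups Col12a1 and Col19a1 had more CPM than Col9a3.

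The other classes had lower leaders. Col15a1, of the multiplexins, had 7.70 ± 2.21 CPM in lesioned striatum, 7.29 ± 0.78 in control striatum, 5.98 ± 0.75 in lesioned prefrontal cortex and 4.41 ± 0.76 in control prefrontal cortex. The other multiplexin, Col18a1, which holds endostatin, was higher in both control groups, at means of 8.15 CPM in striatum and 6.11 CPM in prefrontal cortex. Col26a1 had 4.92 ± 0.63 CPM in lesioned striatum, 5.32 ± 0.56 in control striatum, 6.92 ± 1.37 in lesioned prefrontal cortex and 5.18 ± 0.74 in control prefrontal cortex. Col8a1, a short-chain collagen of vessels that forms hexagonal networks, had 1.85, 2.87 and 2.61 CPM in lesioned striatum, 2.79, 11.8 and 2.85 in control striatum, 4.50, 4.87 and 5.41 in lesioned prefrontal cortex, and 3.17, 5.10 and 4.53 in control prefrontal cortex. The high value of 11.8 CPM belonged to control striatal library 2, the one with choroid plexus markers, and its network partner Col8a2 was highest there too, at 12.4 CPM, and exceeded Col8a1 in the mean of both striatal groups.

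**Figure D1:**
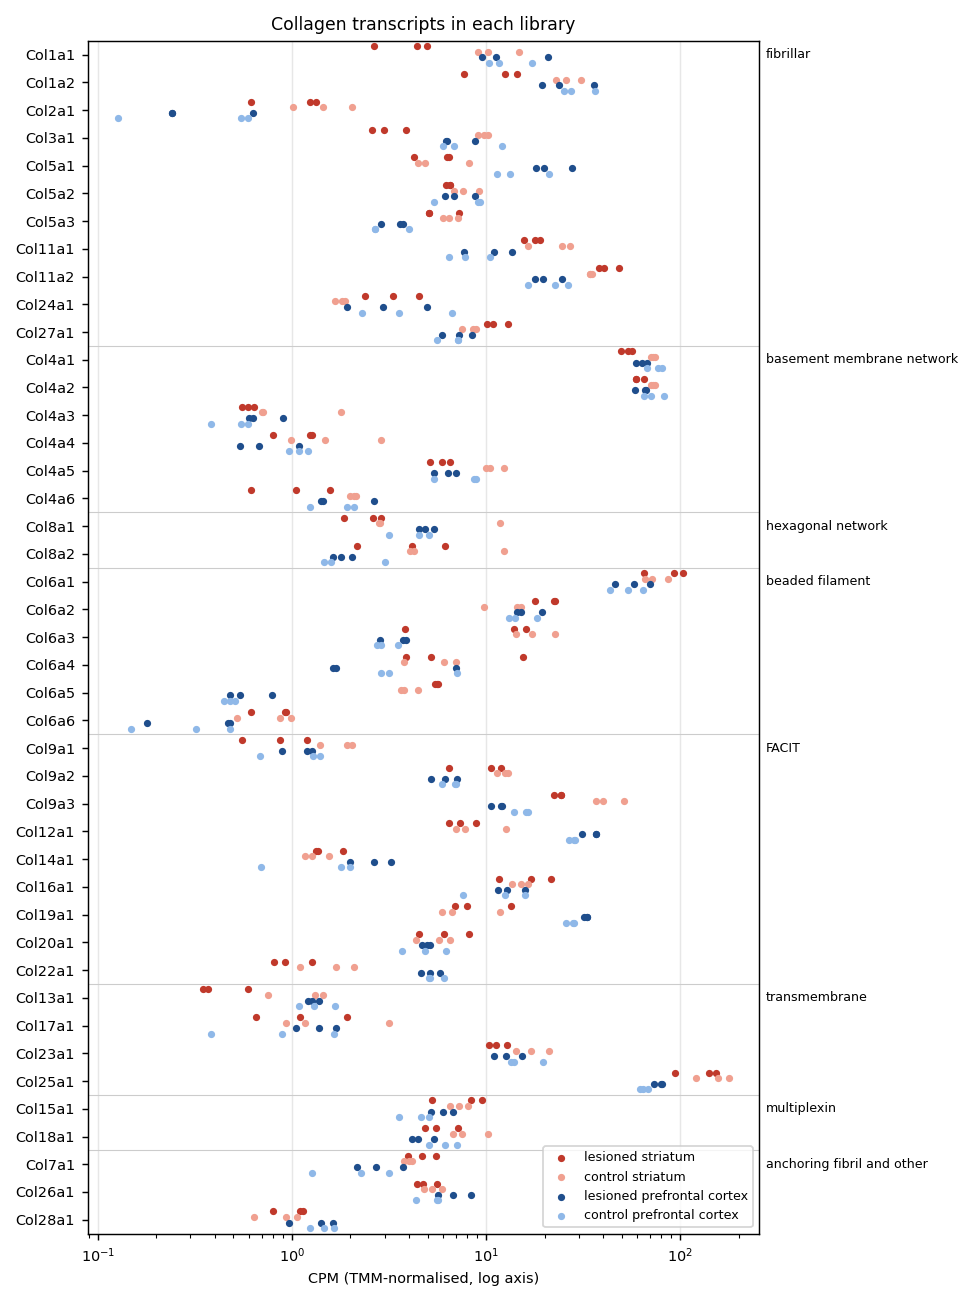
CPM (TMM-normalised, log axis) of each of the 43 collagen genes in each of the 12 libraries, 1 point per library, grouped by structural class. Col25a1, Col6a1, Col4a1 and Col4a2 have high values in all groups, while Col12a1, Col19a1, Col5a1 and Col22a1 are higher in prefrontal than in striatal libraries.

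Chains that assemble into the same molecule kept different degrees of proportion across libraries. Per kilobase, the ratio of Col4a1 to Col4a2 was 0.88, 0.82 and 0.85 in lesioned striatum, 0.95, 0.95 and 1.015 in control striatum, 0.92, 0.99 and 0.98 in lesioned prefrontal cortex, and 0.96, 1.02 and 1.05 in control prefrontal cortex. The ratio thus lay near equality in every library, and the lesioned striatal libraries were the lowest. In the annotation Col4a1 (chromosome 8, 11198423 to 11312826, minus strand) and Col4a2 (chromosome 8, 11312805 to 11449287, plus strand) start head to head with an overlap of 22 bp. The sources used here give no strand setting of the counting, so reads from this overlap cannot be assigned. The ratio of Col1a2 to Col1a1, the chains of collagen I, ranged from 1.92 to 3.62 over the 12 libraries. The ratio of Col6a1 to Col6a3, 2 chains of collagen VI, was 66.5, 11.5 and 14.4 in lesioned striatum, 10.7 ± 3.78 (SD, n = 3) in control striatum, 44.6, 38.1 and 40.4 in lesioned prefrontal cortex, and 44.7, 38.9 and 45.7 in control prefrontal cortex. Lesioned striatal library 1 had the highest ratio of all, beyond the prefrontal range, while the other striatal libraries lay below that range.

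The first comparison set control striatum against control prefrontal cortex, to describe where each chain is found without the lesion. Of the 42 collagen genes tested (Col6a6 was too low), 12 were higher in striatum and 5 lower by edgeR's quasi-likelihood test with Benjamini-Hochberg adjustment over 14239 genes, at an adjusted p below 0.05. Of all genes tested, 42.3% were called, 21.3% higher and 21.0% lower, so the share of collagens called was near that of all genes. At an unadjusted p below 0.05 there were 14 higher and 6 lower, against 50.7% of all genes (25.8% higher, 24.9% lower). Libraries did not overlap in 16 higher and 6 lower collagens, against 55.4% of all genes (27.5% and 27.9%). The median log2 fold change of the collagens was 0.33, against 0.02 over all genes. The collagens higher in striatum were Col6a5, Col6a3, Col8a2, Col2a1, Col9a3, Col11a1, Col25a1, Col5a3, Col9a2, Col15a1, Col11a2 and Col6a1. Those lower in striatum were Col19a1, Col22a1, Col12a1, Col5a1 and Col24a1.

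Collagen VI chains had the largest differences. Col6a5, a chain that can take the place of Col6a3 in collagen VI, had 4.48, 3.76 and 3.66 CPM in control striatum, against 0.45, 0.51 and 0.48 CPM in control prefrontal cortex. All striatal libraries were far above the prefrontal ones, where Col6a5 had 7 to 9 counts, and the log2 fold change was 3.04 (SE 0.23, adjusted p = 4.90e-05). Col6a3 had 22.6, 14.2 and 17.1 CPM in control striatum, against 3.52, 2.74 and 2.88 CPM in control prefrontal cortex. These groups did not overlap either (log2 fold change 2.55, SE 0.20, adjusted p = 5.45e-05). The commonest chain, Col6a1, differed less, by 0.48 (SE 0.15, adjusted p = 0.0343). Col6a2 and Col6a4 were not called, at -0.19 and 0.34. Markers of the hypothalamus and its borders summed to 184 to 350 CPM in control striatum and 6.63 to 9.23 CPM in control prefrontal cortex. Choroid plexus markers summed to 51.5 to 2147 CPM and 5.80 to 7.89 CPM in the same order. Oligodendrocyte lineage markers summed to 14445 to 18227 CPM in control striatum and 6673 to 9195 CPM in control prefrontal cortex. Of the 12, 10 were called higher in striatum and 1 lower, against 21.3% and 21.0% of all genes. The part of bordering tissue or of other cell types in the regional differences of collagens was not tested.

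Chains of neurons and of cartilage-type collagens also differed. Col25a1 had 178, 120 and 156 CPM in control striatum, against 64.5, 67.8 and 61.6 CPM in control prefrontal cortex (log2 fold change 1.23, SE 0.13, adjusted p = 0.000208). Col9a3 had 40.0, 51.3 and 37.0 CPM in control striatum, against 16.5, 13.9 and 16.1 CPM in control prefrontal cortex (1.46, SE 0.14, adjusted p = 0.00011). Its partner Col9a2 had 12.4, 11.4 and 13.0 CPM in control striatum, against 6.95, 7.01 and 5.90 CPM in control prefrontal cortex (0.89, SE 0.12, adjusted p = 0.000617). In these 3 genes every striatal library exceeded every prefrontal one. Of the collagen XI chains, which nucleate fibrils in cartilage, Col11a1 had 27.0, 24.7 and 16.4 CPM in control striatum, against 10.5, 6.44 and 7.82 CPM in control prefrontal cortex (1.45, SE 0.23, adjusted p = 0.00141). Col11a2 had 34.1, 34.1 and 34.9 CPM in control striatum, against 26.3, 16.4 and 22.7 CPM in control prefrontal cortex (0.65, SE 0.15, adjusted p = 0.00885). The related fibrillar chain Col5a3 had 6.45, 6.01 and 7.17 CPM in control striatum, against 4.02, 2.68 and 2.68 CPM in control prefrontal cortex (1.05, SE 0.20, adjusted p = 0.00351). Again the groups did not overlap.

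The chains that were lower in striatum were mostly FACIT collagens. Col19a1 had 6.69, 11.7 and 5.95 CPM in control striatum, against 25.9, 27.9 and 28.5 CPM in control prefrontal cortex (log2 fold change -1.76, SE 0.22, adjusted p = 0.000496). Col12a1 had 7.79, 12.6 and 6.96 CPM in control striatum, against 28.7, 28.4 and 26.8 CPM in control prefrontal cortex (-1.62, SE 0.20, adjusted p = 0.000395). Both were highest, among control striatal libraries, in library 2, which also held most cortical markers. Col22a1, a FACIT chain of tissue junctions, had 1.10, 2.08 and 1.68 CPM in control striatum, against 5.11, 5.16 and 6.04 CPM in control prefrontal cortex (-1.73, SE 0.24, adjusted p = 0.000721). Col5a1, the chain that starts collagen I fibrils, had 4.83, 8.21 and 4.47 CPM in control striatum, against 21.0, 11.4 and 13.3 CPM in control prefrontal cortex (-1.39, SE 0.29, adjusted p = 0.00585). The regions did not overlap in either gene. The chains of collagens I and III, the fibrils of the meninges, were not called: Col1a1, Col1a2 and Col3a1 lay at -0.19, -0.15 and 0.24.

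Without control striatal library 2, 14 collagens were higher and 5 lower, where 47.4% of all genes were called, 23.7% in each direction. Leaving out each library in turn kept 13 of the 17 calls every time. The exceptions were Col24a1, Col6a1, Col8a2 and Col2a1, whose adjusted p reached 0.0845, 0.103, 0.0860 and 0.0648. Col24a1 was lost without control prefrontal library 1 or control striatal library 1 or 3, and Col6a1 without control prefrontal library 2 or 3 or control striatal library 1. Col8a2 was lost without control prefrontal library 1 or 2, and Col2a1 without control striatal library 1. Col2a1, the main chain of cartilage collagen, had 35, 25 and 20 counts in control striatum, against 12, 2 and 8 counts in control prefrontal cortex.

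**Figure D2:**
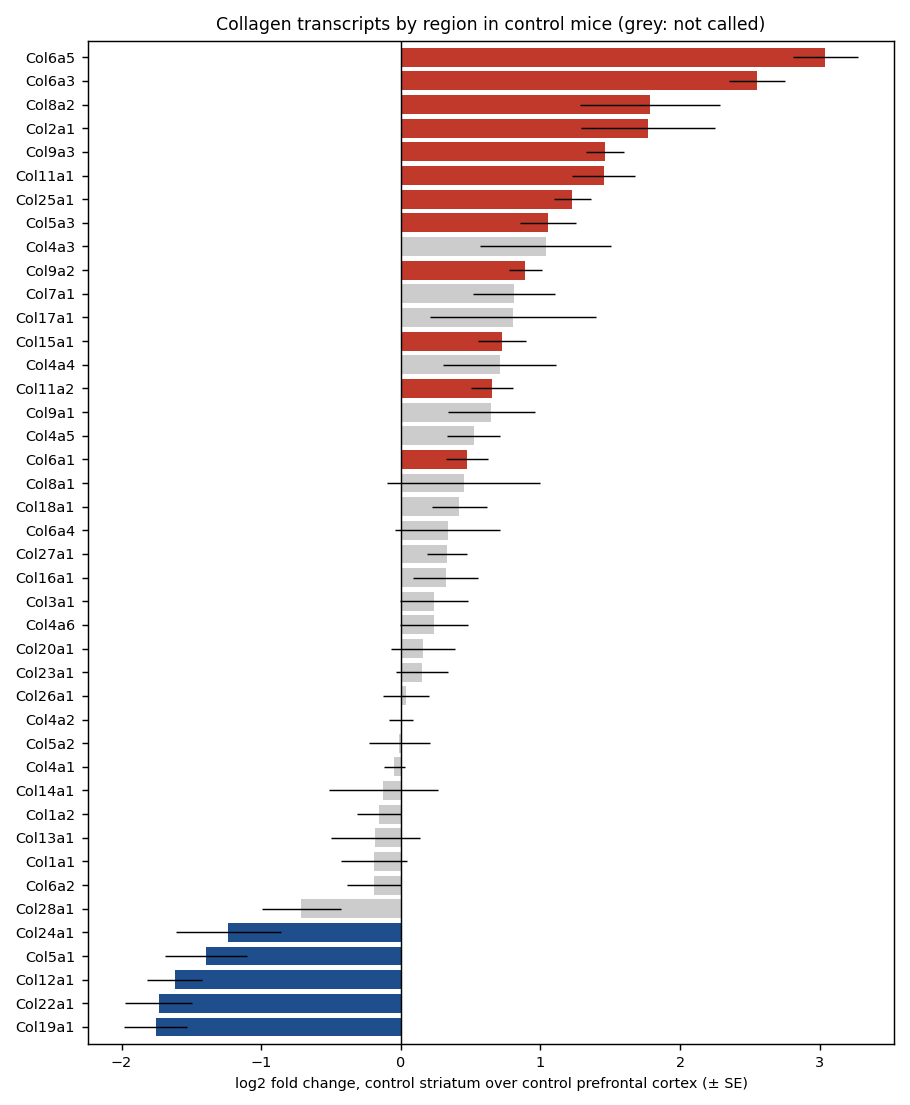
Log2 fold change (± SE) of 42 collagen genes, control striatum over control prefrontal cortex, 3 libraries each; red and blue bars passed the test, grey bars did not. Col6a5 and Col6a3 stand at the top at 3.04 and 2.55, and Col19a1, Col22a1, Col12a1, Col5a1 and Col24a1 at the bottom between -1.76 and -1.23.

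Genes that act on collagen were also compared by region, in lists chosen with earlier results of these data known. Over all genes tested, 21.3% were called higher in striatum and 21.0% lower. Of 32 tested genes of collagen folding, cross-linking and trimming, 13 were higher in striatum and 2 lower, with a median log2 fold change of 0.36. Among them were Sparc, which encodes a collagen-binding matrix protein (1.95, SE 0.15, adjusted p = 5.09e-05), and Adamts3, which encodes a procollagen N-proteinase (0.94, SE 0.12, adjusted p = 0.000507). Of 9 collagen receptors, the kinase gene Ddr1 (0.90, SE 0.08) and Adgrg1, whose product binds collagen III (0.78, SE 0.10), were higher and Mrc2, for an endocytic receptor, was lower (-0.69, SE 0.14). Of 10 genes of collagen breakdown, 5 were higher and 2 lower, among them the membrane-bound protease gene Mmp15 (1.04, SE 0.12) and the cathepsin gene Ctsk (-1.70, SE 0.21). Of 15 basement membrane partners 3 were higher and 1 lower, such as the laminin genes Lamb1 (0.75, SE 0.18) and Lama4 (-0.61, SE 0.14). The Lamb1 call was lost without control prefrontal library 2 (adjusted p = 0.0512).

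The stretch just before the annotated start of a gene is given for the 2 striatum-high chains Col6a5 and Col25a1, the one with the largest difference and the one with the highest level. Both windows hold the 250 bases before the start in RefSeq on GRCm38.p6, 5′ to 3′ on the strand of the gene. Col6a5 is chr9:105960644-105960893 on the minus strand and Col25a1 is chr3:130180595-130180844 on the plus strand. The Col25a1 start lies inside the gene as GENCODE M21 draws it. Capitals mark exact matches to the letters CCAAT (on the other strand the letters ATTGG), to the letters TATAAA (on the other strand TTTATA) and to the letters GGGCGG (on the other strand CCGCCC).
Col6a5: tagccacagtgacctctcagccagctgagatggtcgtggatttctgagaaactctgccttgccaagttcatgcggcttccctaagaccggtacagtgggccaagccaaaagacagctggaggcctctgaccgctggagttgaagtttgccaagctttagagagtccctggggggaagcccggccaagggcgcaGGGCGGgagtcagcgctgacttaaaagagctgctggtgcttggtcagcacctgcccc
Col25a1: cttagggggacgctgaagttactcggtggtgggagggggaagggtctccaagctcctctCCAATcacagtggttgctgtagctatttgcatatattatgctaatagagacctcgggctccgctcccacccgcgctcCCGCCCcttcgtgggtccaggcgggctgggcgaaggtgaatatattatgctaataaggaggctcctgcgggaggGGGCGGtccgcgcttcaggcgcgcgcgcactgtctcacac
Col6a5 held GGGCGG beginning 57 bases before the start. Col25a1 held CCAAT at 191 bases, GGGCGG at 40 bases and its reverse CCGCCC at 114 bases before the start. Over all 32851 RefSeq promoters of this length, 33.8% held CCAAT, 12.4% TATAAA and 32.7% GGGCGG. Among the 38 collagen promoters in the table, of 35 genes with Col10a1 included, 13 held CCAAT, 5 TATAAA and 22 GGGCGG. These are matches of letters and describe no binding.

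In prefrontal cortex the lesion was compared with control to ask which chains moved after 6-OHDA. Of 40 collagen genes tested, 3 rose and 1 fell, where 5.73% of 14018 genes were called, 3.45% higher and 2.28% lower. At an unadjusted p below 0.05 there were 7 higher and 4 lower, or 27.5% against 20.6% of all genes (10.7% higher, 9.90% lower). Libraries did not overlap in 5 higher and 2 lower collagens, against 25.4% of all genes (13.0% and 12.4%). Col25a1, Col12a1 and Col19a1 rose by a small amount, and Col9a3 fell. Col2a1, Col6a5 and Col6a6 were too low to test, with 3 to 15 counts in the lesioned and 2 to 12 counts in the control prefrontal libraries. The median log2 fold change of the 40 was 0.01, against -0.01 over all genes, and 20 lay above 0 and 20 below.

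Col25a1 had 72.8, 79.3 and 80.3 CPM in lesioned prefrontal cortex, against 64.5, 67.8 and 61.6 CPM in control prefrontal cortex. Every lesioned library was above every control, at a level 1.19-fold higher (log2 fold change 0.26, SE 0.06, adjusted p = 0.0246). Col12a1 had 37.0, 36.7 and 31.2 CPM in lesioned prefrontal cortex, against 28.7, 28.4 and 26.8 CPM in control prefrontal cortex (0.32, SE 0.08, adjusted p = 0.0329). Col19a1 had 33.0, 33.2 and 32.1 CPM in lesioned prefrontal cortex, against 25.9, 27.9 and 28.5 CPM in control prefrontal cortex (0.26, SE 0.07, adjusted p = 0.0444). Neither of these overlapped between groups, and the lesioned libraries of Col19a1 lay close to each other. Col9a3 had 12.04, 11.9 and 10.6 CPM in lesioned prefrontal cortex, against 16.5, 13.9 and 16.1 CPM in control prefrontal cortex (-0.43, SE 0.10, adjusted p = 0.0285). All lesioned libraries were lower. The prefrontal controls are those of the regional comparison as well, in which Col25a1 and Col9a3 lay at 1.23 and 1.46 and Col12a1 and Col19a1 at -1.62 and -1.76.

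The chains of the common basement membrane network were chosen after their values were seen. Col4a1 lay just outside the threshold. It had 63.2, 67.0 and 58.9 CPM in lesioned prefrontal cortex, against 80.7, 67.5 and 76.5 CPM in control prefrontal cortex (-0.25, SE 0.07, adjusted p = 0.0504). The groups were separated by less than 1 CPM. Col4a2 had 66.7, 65.7 and 58.5 CPM in lesioned prefrontal cortex, against 82.2, 64.7 and 70.8 CPM in control prefrontal cortex (-0.20, SE 0.08, adjusted p = 0.192), and the groups overlapped. DESeq2 called Col4a1 (adjusted p = 0.0301). The other 34 tested chains were not called by edgeR, and their log2 fold changes ran from -0.51 for Col4a4 to 0.87 for Col14a1.

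These calls rest on few libraries and on small effects. After correcting for GC and length of transcripts, Col25a1 rose, and Col4a1 and Col9a3 fell, while Col12a1 (adjusted p = 0.119) and Col19a1 (0.0522) were not called. That gives 1 higher and 2 lower in place of 3 and 1, where 5.08% of all genes were called (2.58% higher, 2.50% lower). Without lesioned library 1, 2 or 3, in that order, 1, 0 and 1 collagens were called, and without control library 1, 2 or 3, 1, 6 and 0. The highest adjusted p over these 6 fits was 0.124 for Col25a1 (without lesioned library 2), 0.157 for Col12a1 (without lesioned library 2), 0.161 for Col19a1 and 0.124 for Col9a3. By edgeR on all 12 libraries at once, 0 collagens were called among 30 genes, and DESeq2 on the 6 libraries called 2 higher and 2 lower. With all 12 libraries the log2 fold changes were 0.27 for Col25a1, 0.33 for Col12a1, 0.27 for Col19a1 and -0.42 for Col9a3.

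**Figure D3:**
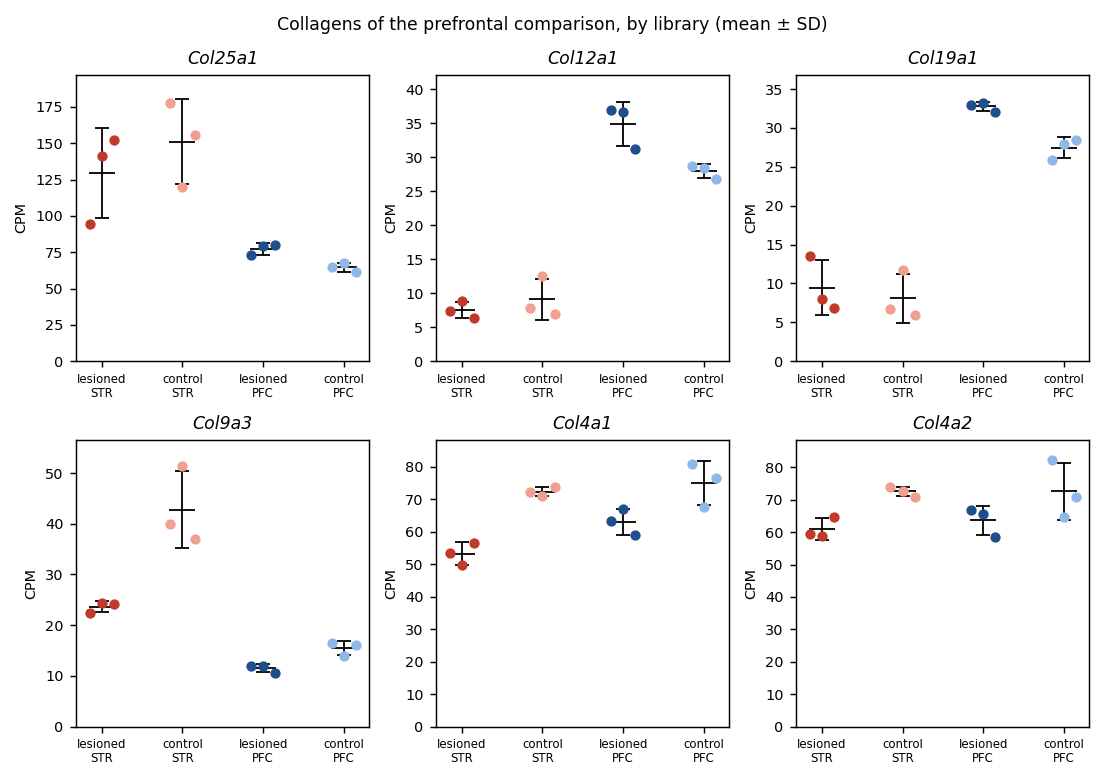
CPM by library (points), with the mean and SD (bars, n = 3), of the 4 collagens called in prefrontal cortex and of Col4a1 and Col4a2; STR is striatum and PFC prefrontal cortex. Lesioned prefrontal points lie above the control ones for Col25a1, Col12a1 and Col19a1 and below them for Col9a3.

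Beside these values, other lists moved in prefrontal cortex, where 3.45% of all genes were called higher and 2.28% lower. At an unadjusted p below 0.05 the shares of all genes were 10.7% higher and 9.90% lower. Of 12 endothelial markers 0 rose and 2 fell, among them the tight junction gene Cldn5, and the summed level was 343 to 362 CPM in lesioned prefrontal cortex and 364 to 414 CPM in control prefrontal cortex. Of 10 astrocyte markers 0 rose and 6 fell, and of 12 oligodendrocyte lineage markers 0 rose and 3 fell, with a median of -0.22. Of 14 striatal projection neuron markers 13 lay below 0, with a median of -0.37 and 0 called by edgeR (0 higher and 3 lower at an unadjusted p below 0.05). Of 12 mural cell markers and of 10 microglia markers, 1 each fell. Of 10 cortical excitatory neuron markers 1 rose and 0 fell, and 7 lay above 0, with a median of 0.05. At an unadjusted p below 0.05, 3 of these cortical markers were higher and 0 lower. Fibroblast markers summed to 149 to 166 CPM in lesioned prefrontal cortex and 157 to 187 CPM in control prefrontal cortex, with 0 of 14 called by edgeR or DESeq2 and 1 higher and 3 lower at an unadjusted p below 0.05. The part of these cell types in the collagen values was not tested.

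Partners of collagen moved in prefrontal cortex as single genes. Adgrg1 had 51.9, 59.0 and 47.9 CPM in lesioned prefrontal cortex, against 73.8, 65.7 and 75.1 CPM in control prefrontal cortex (log2 fold change -0.44, SE 0.08, adjusted p = 0.00502). The integrin gene Itgb1, the shared subunit of collagen-binding integrins, fell by 0.20 (SE 0.05, adjusted p = 0.0477), and the 7 other tested receptors were not called. Among the basement membrane partners, Nid1, which links laminin to collagen IV, fell by 0.47 (SE 0.10, adjusted p = 0.0161). Among 10 genes of breakdown the protease inhibitor gene Timp4 fell by 0.53 (SE 0.08, adjusted p = 0.00251), and among 32 of processing the procollagen protease gene Tll2 fell by 0.74 (SE 0.19, adjusted p = 0.0381). Leaving out each library in turn kept the calls of Adgrg1 and Timp4 in 6 of 6 fits, that of Nid1 in 4, that of Tll2 in 1 and that of Itgb1 in 0. The highest adjusted p in these fits was 0.208 for Itgb1, 0.159 for Tll2 and 0.0805 for Nid1.

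In striatum no collagen passed the test after the lesion. By edgeR 0 of 43 were called, where 0.0280% of 14288 genes were called (0.00700% higher, 0.0210% lower), and at an unadjusted p below 0.05 there were 5 higher and 11 lower, or 37.2% of the collagens against 17.3% of all genes (9.30% higher, 8.02% lower). limma-voom also called 0, while DESeq2 called 1 higher and 6 lower, where it called 3.70% of all genes (2.24% higher, 1.46% lower). Libraries did not overlap in 5 collagens that were higher and 13 that were lower after the lesion, against 13.5% and 12.4% of all genes (25.8% in either direction). The median log2 fold change of the collagens was -0.30, against -0.00 over all genes, and 28 of 43 lay below 0. Without control striatal library 2 the median was -0.18, and without that library and lesioned striatal library 1 it was -0.15. The chains given below were chosen after their values were seen.

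Col3a1 and Col1a1 had the most negative log2 fold changes of the 43. Col3a1, which forms the fine fibrils of vessel walls and meninges, had 2.59, 2.98 and 3.88 CPM in lesioned striatum, against 9.13, 10.2 and 9.71 CPM in control striatum (log2 fold change -1.62, SE 0.18, adjusted p = 0.0606). Col1a1 had 2.65, 4.98 and 4.41 CPM in lesioned striatum, against 9.13, 14.9 and 10.2 CPM in control striatum (-1.51, SE 0.28, adjusted p = 0.138). Col1a2 had 7.71, 12.5 and 14.4 CPM in lesioned striatum, against 23.0, 30.9 and 25.8 CPM in control striatum (-1.21, SE 0.23, adjusted p = 0.142). In these chains every lesioned striatal library lay below every control one. DESeq2 called them, with adjusted p of 2.88e-10 for Col3a1, 0.000125 for Col1a1 and 0.000185 for Col1a2. The same chains lay at -0.22, 0.08 and -0.17 in the prefrontal comparison.

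Basement membrane chains were all below control. Col4a1 had 53.5, 49.6 and 56.5 CPM in lesioned striatum, against 72.1, 71.0 and 73.9 CPM in control striatum (-0.45, SE 0.07, adjusted p = 0.116). Col4a5, an X-linked chain of a more restricted network, had 5.12, 6.49 and 5.91 CPM in lesioned striatum, against 10.5, 12.4 and 10.01 CPM in control striatum (-0.91, SE 0.15, adjusted p = 0.111). Both were apart from their controls in every library and were called by DESeq2. Col4a2 lay at -0.26 (SE 0.07, adjusted p = 0.185), and all 6 chains of the class had values below 0, from -0.93 to -0.26. In 5 of 6 the groups did not overlap, where 12.4% of all genes were lower without overlap.

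Other chains differed one by one. Col9a3 had 22.4, 24.3 and 24.2 CPM in lesioned striatum, against 40.0, 51.3 and 37.0 CPM in control striatum (-0.86, SE 0.13, adjusted p = 0.0967), with no overlap. Col13a1, a transmembrane chain, had 6, 11 and 6 counts in lesioned striatum, against 13, 25 and 26 counts in control striatum (-1.41, SE 0.39, adjusted p = 0.187). Col6a2 stood on the other side, with 22.5, 17.9 and 22.3 CPM in lesioned striatum, against 9.77, 14.5 and 15.2 CPM in control striatum (0.66, SE 0.18, adjusted p = 0.188). Col6a3 had 3.82, 13.9 and 16.0 CPM in lesioned striatum, where library 1 lay at the level of prefrontal libraries, against 22.6, 14.2 and 17.1 CPM in control striatum. Col25a1 had 94.3, 141 and 152 CPM in lesioned striatum, against 178, 120 and 156 CPM in control striatum, and overlapped.

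**Figure D4:**
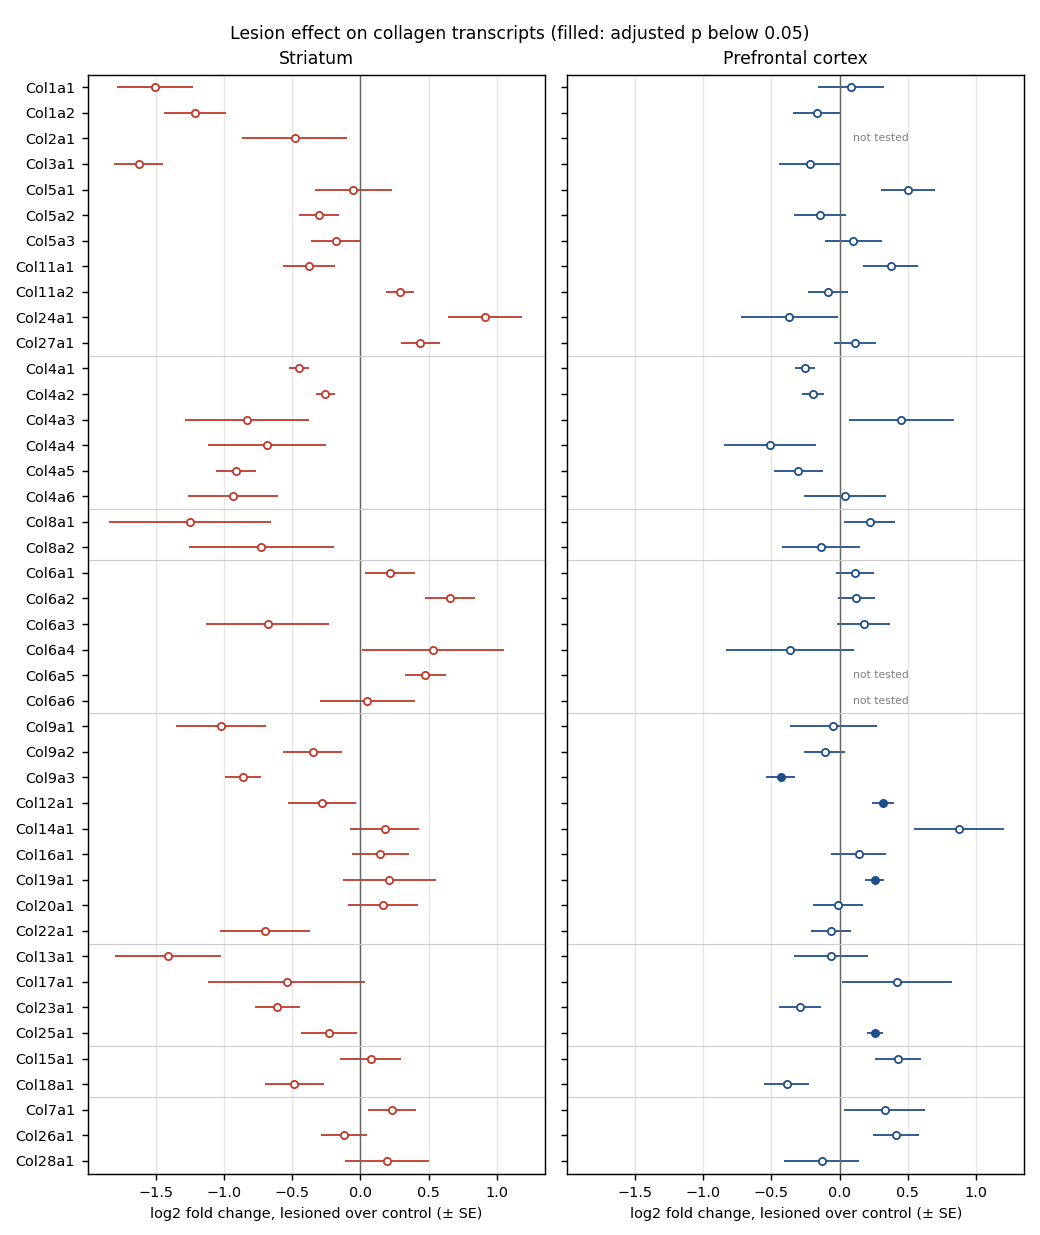
Log2 fold change (± SE) of collagen genes, lesioned over control, in striatum (left) and prefrontal cortex (right), 3 libraries a group and ordered by structural class; filled points passed the test. In striatum Col1a1, Col1a2 and Col3a1 lie between -1.62 and -1.21 without passing it, and in prefrontal cortex 4 points are filled.

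Markers of fibroblasts moved beside the collagens of striatum. Of 13 tested fibroblast markers all lay below 0, with a median log2 fold change of -1.44. In 10 of them the groups did not overlap, where 12.4% of all genes were lower without overlap. Slc22a6, for an organic anion transporter, was called, with 0.55, 0.60 and 0.70 CPM in lesioned striatum, against 3.90, 5.78 and 4.57 CPM in control striatum (-2.94, SE 0.25, adjusted p = 0.0427). This call was lost in each of the 6 fits that left out a single library (adjusted p 0.0686 to 0.225) and with limma-voom (0.0684). The list summed to 114 to 127 CPM in lesioned striatum, against 167 to 176 CPM in control striatum. Without Pdgfra, which also marks oligodendrocyte precursors and gives most of these sums, it summed to 20.8, 26.4 and 26.3 CPM in lesioned striatum, against 53.4, 79.5 and 59.1 CPM in control striatum. The groups did not overlap, and none of the 14 markers was at 0 in any striatal library. Dcn, for the collagen-binding proteoglycan decorin, had 3.58, 4.98 and 5.04 CPM in lesioned striatum, against 7.73, 10.3 and 7.57 CPM in control striatum. Endothelial markers summed to 276 to 313 CPM in lesioned striatum and 312 to 364 CPM in control striatum, and mural cell markers to 256 to 269 CPM in lesioned striatum and 264 to 292 CPM in control striatum. Striatal projection neuron markers summed to 5968 to 15291 CPM in lesioned striatum and 2806 to 4511 CPM in control striatum. Choroid plexus markers summed to 31.3, 38.3 and 41.1 CPM in lesioned striatum, against 51.5, 2147 and 73.4 CPM in control striatum, and all 6 tested lay below 0. Without overlap, 0 of 10 astrocyte markers were higher and 5 lower, and 4 of 10 microglia markers were higher and 0 lower. Of all genes, 13.5% were higher and 12.4% lower without overlap. The part of these cell types in the collagen values was not tested.

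**Figure D5:**
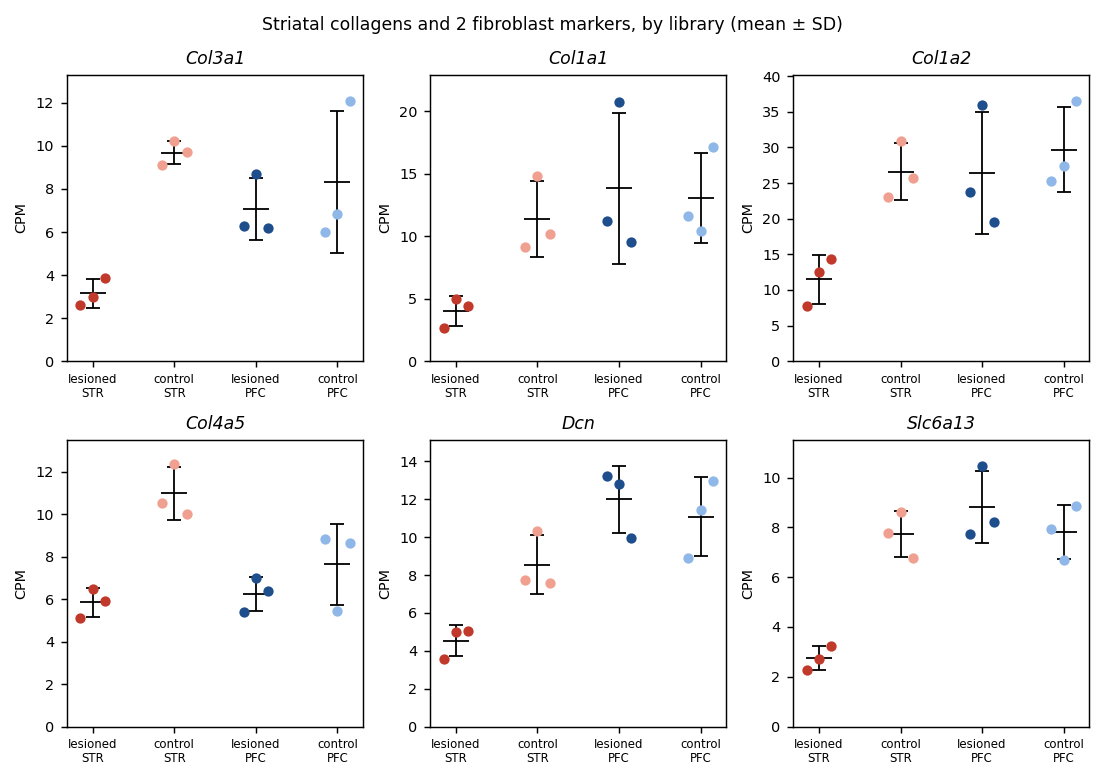
CPM by library (points), with the mean and SD (bars, n = 3), of Col3a1, Col1a1, Col1a2 and Col4a5 and of the fibroblast markers Dcn and Slc6a13; STR is striatum and PFC prefrontal cortex. In all 6 panels the lesioned striatal points lie below the control striatal points, while the prefrontal groups overlap.

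The libraries that stand apart were also left out together. Without lesioned striatal library 1 and control striatal library 2, 3 collagens were called lower, where 0.383% of all genes were called (0.188% higher, 0.195% lower). These were Col3a1 (-1.46, SE 0.19, adjusted p = 0.0397), Col1a2 (-0.87, SE 0.12, adjusted p = 0.0455) and Col9a3 (-0.67, SE 0.09, adjusted p = 0.0425), and Col1a1 was at -1.04 (adjusted p = 0.0521). That fit rests on 2 libraries a group. With the GC and length correction Col3a1 was called (-1.64, SE 0.17, adjusted p = 0.0445) among 0.0778% of all genes (0.0141% higher, 0.0636% lower). The fit of all 12 libraries called 8 collagens, 1 higher and 7 lower, where it called 7.15% of all genes (4.15% higher). That fit shares 1 estimate of the spread between regions, although striatal libraries varied more than prefrontal ones. Its striatal p-values may therefore be too small.

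Genes that act on collagen had no call in striatum by edgeR or limma-voom. The shares over all genes were 9.30% higher and 8.02% lower at an unadjusted p below 0.05, and 2.24% and 1.46% by DESeq2. Among 31 of processing 3 were higher and 7 lower at an unadjusted p below 0.05, and DESeq2 called 1 and 4. Among 9 receptors the counts were 1 higher and 3 lower, with 1 higher and 0 lower by DESeq2. Among 9 of breakdown 0 were higher and 5 lower, with 0 and 2 by DESeq2. Among 15 basement membrane partners 0 were higher and 6 lower, with 0 and 2 by DESeq2.

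For Col3a1 and Col1a2 the bases before the RefSeq start (GRCm38.p6, plus strand) are shown because both chains were lower in every lesioned than in every control striatal library. Col3a1 is chr1:45311288-45311537, 250 bases. Col1a2 is chr6:4505370-4505492, the longest stretch of its window that no GENCODE M21 exon covers, 123 bases. It runs from 248 to 126 bases before the start, so the bases nearest to the start were not searched. This stretch lies inside the gene as GENCODE M21 draws it. Capitals mark the same motifs as above.
Col3a1: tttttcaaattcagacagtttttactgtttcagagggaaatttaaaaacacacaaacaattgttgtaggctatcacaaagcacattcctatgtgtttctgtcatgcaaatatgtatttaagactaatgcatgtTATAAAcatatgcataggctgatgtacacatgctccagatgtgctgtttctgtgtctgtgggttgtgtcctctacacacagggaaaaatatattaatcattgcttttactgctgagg
Col1a2: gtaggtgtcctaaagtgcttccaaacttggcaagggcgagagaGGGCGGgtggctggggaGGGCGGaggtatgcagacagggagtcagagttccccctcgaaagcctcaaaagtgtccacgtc
Col3a1 held TATAAA beginning 117 bases before its start. Col1a2 held GGGCGG at 205 and at 188 bases before its start. None of the motifs searched stood in both stretches, but that of Col1a2 is shorter and leaves out the bases nearest to its start.

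The last comparison tested whether the lesion effect differed between striatum and prefrontal cortex. It needs all 12 libraries, which share 1 estimate of the spread, with a biological coefficient of variation of 11.3%. Fitted alone, the striatal libraries had 14.9% and the prefrontal ones 5.78%, so edgeR's p-values here may be too small. By edgeR 0 of 43 collagens were called, where 0.0825% of 14545 genes were called (0.0138% higher, 0.0688% lower). At an unadjusted p below 0.05 there were 1 higher and 10 lower, or 25.6% against 11.7% of all genes (5.87% higher, 5.84% lower). limma-voom called 0 and DESeq2 2, where DESeq2 called 0.798% of all genes (0.385% higher, 0.413% lower). Those were Col1a1, whose difference between the log2 fold changes of striatum and prefrontal cortex was -1.59 (adjusted p = 0.04999), and Col3a1, at -1.40 (adjusted p = 0.0298). With edgeR their adjusted p was 0.305 and 0.239. Col1a2 stood at -1.04 (SE 0.35, adjusted p = 0.329). A different response of these chains in the 2 regions is therefore not shown by the edgeR test. Among the 14 fibroblast markers edgeR called 4 with a lower value in striatum, among them Slc22a6 (-2.68, SE 0.34, adjusted p = 0.0161), the GABA transporter gene Slc6a13 (-1.67, SE 0.24, adjusted p = 0.0378) and Aldh1a2, for a retinoic acid enzyme (-1.87, SE 0.28, adjusted p = 0.0393). Leaving out each of the 12 libraries in turn kept the call of Slc22a6 in 9 fits, of Slc6a13 in 4 and of Aldh1a2 in 2, with adjusted p up to 0.0753, 0.120 and 0.142. limma-voom called 0 of the 14.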

How the data were processed

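Read counts per gene symbol were deposited by the authors in 1 table of 12 libraries. Per the labels' protocols, stranded libraries were made from 500 ng of RNA (integrity number at least 8.9) after mRNA purification and read as 101 bp pairs. STAR 2.7.1a, featureCounts and mm10 are named in the submitters' processing notes, whereas the sources used here give no annotation or strand setting. Symbols whose counts are all multiples of 11 (1830, holding 0.144% of counts and all at 0 in lesioned prefrontal library 1) were left out.

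Counts were tested in R 4.3.3 with edgeR 4.0.16 (quasi-likelihood test, TMM, filterByExpr, two-sided, Benjamini-Hochberg adjustment over all genes tested, calls at an adjusted p below 0.05). Each comparison was fitted on its 6 libraries, and the difference between lesion effects on all 12. The SE of a log2 fold change is its size over the root of the F statistic. Levels per kilobase use the longest protein-coding transcript of GENCODE M21 (GRCm38). The test was also run on counts simulated from its own fitted spread, with independent libraries. That simulation holds no libraries that stand apart as the striatal ones do, and its outcome is not given here. Alternatives included DESeq2 1.42.0, voom of limma 3.58.1, other factors and filters, a GC and length correction, a replicate block and leaving out libraries. Collagens, lists and tests were chosen with earlier results of these data known. Values were given for up to 12 called collagens per comparison above 1 CPM with the smallest p, for the highest collagen of each class, and for up to 3 called members of each other list. The result of 1 list member is not reported here.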

Additional observations from a re-analysis of the deposited data

Results flagged for a closer look

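Col4a3, a chain of the basement membrane network found in kidney and a few other tissues, was the collagen whose libraries moved apart in opposite directions. In striatum it had 9, 11 and 11 counts in lesioned libraries, against 12, 31 and 14 counts in control libraries, and in prefrontal cortex 12, 10 and 15 counts in lesioned libraries, against 12, 6 and 8 counts in control libraries. After scaling for depth and by TMM, every lesioned library was below every control in striatum and above every control in prefrontal cortex. The prefrontal gap was very small. Lesioned library 2 had 10 of 17536551 counts and control library 1 had 12 of 20925452. Their order rests on the TMM factors of 0.949 and 0.964. The difference between the log2 fold changes of striatum and prefrontal cortex was -1.29 (SE 0.58), with an adjusted p of 0.418 by edgeR's quasi-likelihood test, so the difference itself did not pass. The 31 counts belong to control striatal library 2, which also held the choroid plexus markers, and the value without that library is not given here.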

How the results depend on the processing

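No log2 fold change of a single gene tracked under the alternatives changed sign. The prefrontal median of all collagens, 0.01, did, ranging from -0.05 to 0.13, as did the all-gene medians near 0, and the prefrontal split of 3 higher and 1 lower became 1 and 2 with the GC and length correction. In prefrontal cortex 803 genes and 4 collagens passed; edgeR on all 12 libraries at once gave 30 genes and 0 collagens, and leaving out each library in turn gave 195 to 1010 genes and 0 to 6 collagens. In striatum 4 genes and 0 collagens were called. DESeq2 gave 529 genes and 7 collagens there, the fit of all 12 libraries 1040 and 8, the GC and length correction 11 and 1, and leaving out lesioned library 1 with control library 2 gave 55 and 3. limma-voom gave 0 genes, as did keeping the multiples of 11, and leaving out each library gave 0 to 2 genes and 0 collagens. For the difference between lesion effects, 12 genes became 116 with DESeq2 (2 collagens), 0 with limma-voom, 5 with the multiples of 11 kept, 101 without both striatal libraries and 0 to 172 without each library, the most without lesioned striatal library 2. The regional count of 17 collagens ranged from 14 to 19 over all alternatives. The cause of these shifts was not tested.

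No label says that library numbers pair the samples. In the 4 pairs of groups that share a region or a treatment, deviations of libraries with the same number correlated between -0.112 and 0.092, and in none did every library correlate best with its own number. With the replicate block 634 genes and 4 collagens were called in prefrontal cortex, 0 and 0 in striatum, 5590 and 16 between regions and 0 and 0 for the difference. With the block and the GC and length correction, striatum had 0 genes and the difference 5. Depth limits the lowest chains, such as Col6a6, which had 3 to 17 counts.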

Other observations

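Col6a4 was highest in the library numbered 1 in all 4 groups. It had 15.5, 5.19 and 3.88 CPM in lesioned striatum, 7.04, 6.07 and 3.76 CPM in control striatum, 6.96, 1.68 and 1.62 CPM in lesioned prefrontal cortex, and 7.09, 2.87 and 3.16 CPM in control prefrontal cortex. Of 14545 genes, 2.27% were highest in the library numbered 1 in all 4 groups, against 1.29% for number 2 and 0.928% for number 3. No label says what a library number marks.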
